A study of Mus musculus with 4 samples.

Results

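The genes described here are the replication-dependent histone genes of the mouse, read in RNA of the sciatic nerve. They were chosen by name alone, as every gene whose symbol starts with Hist1h, Hist2h, Hist3h or Hist4h, and 70 of the 50593 genes in the table met this rule. The symbols put 6 of them in the linker histone class H1, 20 in H2a, 19 in H2b, 12 in H3 and 13 in H4. On GRCm38, 56 belong to the Hist1 group on chromosome 13, 10 to Hist2 on chromosome 3, 3 to Hist3 on chromosome 11 and 1 to Hist4 on chromosome 6. The annotation calls 67 of them protein-coding, and Hist1h2aj, Hist1h2al and Hist3h2bb-ps pseudogenes.

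The study compared HSF V30M mice with HSF WT mice, 2 samples each, all of strain 129S1/SvImJ and aged 6 months. Both groups carry the heterozygous deletion of Hsf1, the heat shock transcription factor. HSF V30M mice also carry human TTR V30M as a transgene and lack mouse Ttr, and they serve as a model of familial amyloid polyneuropathy, whereas HSF WT mice have no transgene. For RNA sequencing, n = 4 is stated in the methods without saying whether per group, and the labels do not say whether the 2 samples of a group are separate litters or batches. The deposited table holds 1 value per gene and group in FPKM (fragments per kilobase of transcript, scaled to depth), so no test between mice was possible and no p-value is given for any gene. Hsf1 was at 7.94 FPKM in HSF V30M and 15.0 in HSF WT. Mouse Ttr was at 6.10 in the group labelled HSF V30M, whose own Ttr is null, and 0 in the HSF WT column. Read as mouse transcripts, this would go against the labels. The labels are used as given, so every direction below is that between the groups so labelled. The human transgene is not in the mouse reference, so whether the 6.10 comes from human or mouse transcripts was not tested. The nerve markers of Schwann cells were high in both groups, with Mbp, the myelin basic protein, at 3854 FPKM in HSF V30M and 3441 in HSF WT.

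Histones package DNA. A pair each of H2a, H2b, H3 and H4 proteins forms the core of a nucleosome, and H1 binds the linker DNA beside it. Cells that copy their DNA need new histones at once, and the clustered genes described here supply them during the S phase. Their mRNAs differ from nearly all others in that most end in a short stem-loop and not in a poly(A) tail. The stem-loop binding protein Slbp holds this element, and the U7 small nuclear ribonucleoprotein directs the cut just behind it. Some members also give polyadenylated transcripts, mainly in cells that no longer divide.

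The stem-loop was searched as GGCNCTTNTCAGNGCC in the GENCODE M21 transcripts of all protein-coding genes. It was found in 34 of the 67 coding members (50.7%) and in 2 of 21884 other coding genes (0.0091%), which were Trim17 and H2bfm, another H2b gene. By class it was found in 3 of 6 H1, 10 of 18 coding H2a, 8 of 18 coding H2b, 5 of 12 H3 and 8 of 13 H4 genes. A transcript annotated to end before this element cannot match, so the other members are not shown to lack it. One form was found in 26 of the 34, and the H4 genes carried another. These examples show both stems side by side, with the stem-loop in capitals:
Hist1h1d: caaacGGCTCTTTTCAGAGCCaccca
Hist1h2ab: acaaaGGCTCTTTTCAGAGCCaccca
Hist1h2ag: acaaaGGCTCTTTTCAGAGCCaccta
Hist1h2bj: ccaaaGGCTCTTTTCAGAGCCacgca
Hist1h3b: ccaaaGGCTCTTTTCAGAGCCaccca
Hist1h4c: caaaaGGCCCTTTTCAGGGCCaccca
Hist1h4d: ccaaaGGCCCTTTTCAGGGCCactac
Hist1h4a: ccaaaGGCCCTTCTCAGGGCCgccca
All 26 members with the form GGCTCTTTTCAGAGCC belong to H1, H2a, H2b or H3. All 8 H4 members with a match have a C-G pair in place of the T-A pair of the stem, 7 of them as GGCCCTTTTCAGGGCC and Hist1h4a with a different loop. Hence the letters of the element alone separate H4 mRNAs from those of the other classes among the 34.

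The members spanned a wide range of levels. Of the 70, 54 were above 0 in both groups, 6 in only 1 group and 10 in neither. A mean FPKM of at least 1 over both groups was reached by 51 members, namely 5 of H1, 11 of H2a, 14 of H2b, 9 of H3 and 12 of H4. Summed over all members, the level was 2252 FPKM in HSF V30M and 2076 in HSF WT, a ratio of 1.09. The 5 highest members, Hist1h4c, Hist1h4d, Hist1h4h, Hist1h1e and Hist1h1c, held 71.4% of this total for HSF V30M and 66.4% for HSF WT. H4 alone held 67.5% and 60.4%. In a bulk sample, fewer cells of a type and less RNA per cell cannot be told apart.

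Between the groups, few members were far apart. Taken as log2((HSF V30M + 1) / (HSF WT + 1)), which understates the change of low genes, 20 of the 51 members were above 0 and 31 below 0, with a median of -0.16. Over all 15620 genes with a mean of at least 1 the median was 0.00, and 49.6% were below 0. By at least a fold of 2 on this scale, 3 members were higher in HSF V30M and 2 were lower, against 3.98% of all genes higher and 3.94% lower. The higher members were Hist1h2bb, Hist2h2ac and Hist2h4, and the lower members were Hist1h2al and Hist1h3h. Just inside the limit lay Hist1h3h at -1.06 and Hist2h4 at 1.10, and just outside it Hist2h2bb at -0.98 and Hist1h4k at 0.95. The counts are a description of 2 group values and carry no replicate check.

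**Figure D1:**
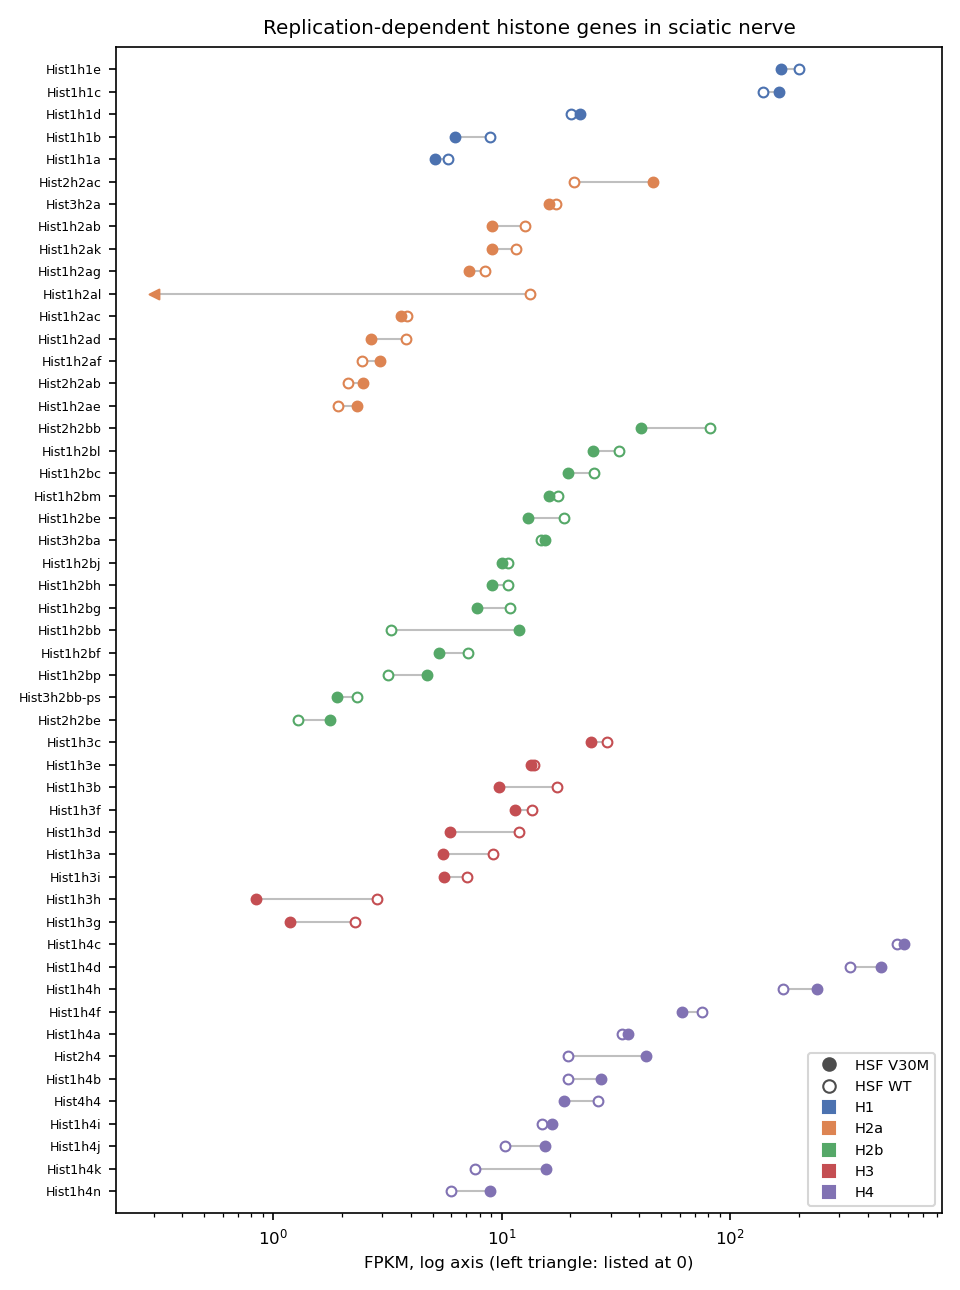
FPKM (log axis) of the 51 members with a mean of at least 1, grouped by class, with filled points for the HSF V30M group value and open points for the HSF WT group value. All 9 H3 members shown lay to the left in HSF V30M, 10 of 12 H4 members lay to the right, and Hist1h2al is listed at 0 in HSF V30M.

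The H4 class held the highest levels and was mostly higher in HSF V30M. H4 is the core histone that all nucleosomes share and, unlike the others, its genes encode practically one protein. The class sum was 1520 FPKM in HSF V30M and 1254 in HSF WT. The median log2 ratio was 0.46, and 10 of 12 members were above 0. Hist1h4c was at 579 FPKM in HSF V30M and 536 in HSF WT, the highest of all members in both groups. Hist1h4d followed at 457 and 334, which stands for about 1912 to 2264 fragments in HSF V30M. Hist1h4h was at 240 and 171. The direction was not shared by Hist1h4f, at 61.5 and 74.97, or by Hist4h4, at 18.7 and 26.3. Hist1h4a was close between the groups, at 35.7 and 33.7. Hist2h4 (chromosome 3, 96261682 to 96263311, minus strand) was at 43.0 FPKM in HSF V30M and 19.6 in HSF WT. This is a fold of 2.19 with a counting interval of 1.97 to 2.45. All counting intervals are exact (Clopper-Pearson, 95%), cover counting error only and say nothing of the spread between mice.

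The H3 class was lower in HSF V30M in each of its 9 members with a mean FPKM of at least 1, all of them of the Hist1 group. Of the 3 H3 members under this minimum, Hist2h3c1 was at 0.76 and 1.12 FPKM, Hist2h3c2 at 0.98 and 1.002, and Hist2h3b at 0.06 and 0. H3 is the core histone whose tail carries many of the known chromatin marks. The class sum was 80.1 FPKM in HSF V30M and 109 in HSF WT, and the median log2 ratio was -0.59, or -0.29 with a minimum mean of 5. Hist1h3c, the highest, was at 24.5 and 29.0 FPKM. The differences ran from Hist1h3e, at 13.5 and 13.8, to Hist1h3h, at 0.84 and 2.84, whose value rests on 4 to 5 fragments in HSF V30M and 10 in HSF WT and whose counting interval of the fold, 0.068 to 1.03, includes 1. Hist1h3b was at 9.72 and 17.4, and Hist1h3d at 5.91 and 11.9. For both of these the counting interval of the fold lay below 1, at 0.420 to 0.738 and 0.337 to 0.732. Hist1h3f was at 11.5 and 13.6.

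H1 and H2a stood near equality as classes. The H1 sum was 365 FPKM in HSF V30M and 373 in HSF WT, and 2 of 5 members were above 0. Hist1h1e was at 167 and 199, Hist1h1c at 164 and 139, and Hist1h1d at 21.98 and 20.2, so the 3 most abundant H1 genes did not share a direction. Hist1h1b was at 6.23 and 8.87 and Hist1h1a at 5.10 and 5.81. The sixth, Hist1h1t, known for its expression in the testis, had 0.33 FPKM from about 4 fragments in HSF V30M. It is at 0 in HSF WT, with a floor of 0.367 for 3 fragments. The other members above 0 in HSF V30M alone, Hist1h2an, Hist1h2ba, Hist1h4m and Hist2h3b, were at 0.06 to 0.64 FPKM, and those with a known length lay under their floors in HSF WT.

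In H2a the sum was 102 FPKM against 98.2, and 4 of 11 members were above 0. Hist2h2ac (chromosome 3, 96220361 to 96220880, minus strand) was at 46.0 FPKM in HSF V30M and 20.6 in HSF WT. This is a fold of 2.23 with a counting interval of 1.80 to 2.78. Without it, the H2a sum was lower in HSF V30M by a ratio of 0.720. Hist3h2a was at 16.2 and 17.4, Hist1h2ab at 9.07 and 12.6, Hist1h2ak at 9.10 and 11.6, and Hist1h2ag at 7.22 and 8.46. Hist1h2al (chromosome 13, 51202688 to 51203065, minus strand), a processed pseudogene far from the Hist1 group, had no fragment in HSF V30M and 41 fragments, or 13.3 FPKM, in HSF WT. Against a floor of 3 fragments, it was at least 17.2-fold lower in HSF V30M.

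In H2b the sum was 186 FPKM in HSF V30M and 241 in HSF WT, and 10 of 14 members were below 0. Most of the gap came from Hist2h2bb, at 40.9 and 81.8. The annotation places this gene within other transcripts, so that none of its 100-base windows was unique and its level is uncertain. Hist1h2bl was at 25.2 and 32.7 FPKM, Hist1h2bc at 19.5 and 25.4, Hist1h2bm at 16.2 and 17.7 and Hist1h2be at 13.0 and 18.7. Of the 4 members above 0, Hist1h2bb had the largest fold (chromosome 13, 23746790 to 23747241, plus strand). It was at 11.9 FPKM in HSF V30M and 3.27 in HSF WT, and its fold of 3.64 had a counting interval of 2.05 to 6.86.

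The 2 HSF WT libraries could be read apart for part of the members. A group value is the mean of its libraries, each of which counts whole fragments, and the HSF WT values are written with 6 digits. The effective length was 200.66 bases shorter than the transcript (for transcripts of 440 bases or more). The worth of 1 fragment was taken as FPKM times kilobases of effective length, so a fragment adds less FPKM to a longer transcript. In the group value it was 0.0481 for a fragment from one HSF WT library and 0.0647 for one from the other, a 1.35-fold difference in depth. Among 774 other single-transcript coding genes with up to 100 fragments, 770 values (99.5%) had exactly 1 solution in whole fragments of both libraries. Of the 55 members above 0 in HSF WT, 39 had a single solution, 34 of them with at least 10 fragments. The rest had more than 1 solution (8 members, the most abundant among them) or no certain transcript length (8 members). The libraries are called deeper and shallower here, since which mouse gave which is not known. The HSF V30M values, with 2 decimals, could not be read apart.

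Histone levels were far apart between the 2 HSF WT libraries. Of the 34 members, 29 were higher in the shallower library after scaling to depth, against 49.8% of 446 other coding genes read in the same way. For 21 members the counting interval of the ratio lay above 1 and for 1 member below 1, against 8.74% of the other genes each way. The median ratio of shallower over deeper was 2.07 for the members and 0.994 for the other genes. Summed over the 39 members, 1016 fragments came from the deeper library and 1401 from the shallower, which is 269 and 544 FPKM, and the HSF V30M sum of 395 lay between them.

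In H1, Hist1h1b had 18 fragments in the deeper and 61 in the shallower library, or 3.19 and 14.6 FPKM, and the HSF V30M value of 6.23 lay between. Hist1h1a had 13 and 30 fragments, or 2.83 and 8.80 FPKM. Hist1h1d differed least of the 3, with 96 and 98 fragments, or 17.0 and 23.3 FPKM. All 3 H1 members were therefore higher in the shallower library, with an interval above 1.

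In H2a, Hist1h2ag had 7 and 32 fragments, or 2.37 and 14.6 FPKM, the widest ratio of the 34 at 6.16 (interval 2.67 to 16.5). Hist1h2ab had 15 and 42 fragments, or 5.29 and 19.96 FPKM. Hist1h2ak had 10 and 27 fragments, or 4.99 and 18.2 FPKM. The exception was Hist1h2ac, with 14 and 6 fragments, or 4.89 and 2.82 FPKM, whose interval included 1.

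In H2b, Hist1h2bh had 8 and 25 fragments, or 4.10 and 17.3 FPKM. Hist1h2bj had 14 and 33 fragments, or 5.13 and 16.3 FPKM, and Hist1h2bm 18 and 36, or 9.58 and 25.8 FPKM. The order was turned in Hist2h2be, with 43 and 16 fragments, or 1.71 and 0.856 FPKM, the only member with an interval below 1. Its gene model of 2620 bases and that of Hist2h3c2 (1020 bases, with 9 and 6 fragments) are the only ones over 1000 bases among the 34, and neither was higher in the shallower library. This pair was singled out after the values were seen.

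In H3, 8 of 9 members were higher in the shallower library. Hist1h3c had 45 and 96 fragments, or 15.0 and 43.1 FPKM. Hist1h3b had 47 and 78, or 10.8 and 24.1 FPKM, and Hist1h3d 24 and 48, or 6.42 and 17.3 FPKM. Hist1h3g, which has under 10 fragments and is not counted among the 34, had 0 in the deeper and 8 in the shallower library.

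In H4, Hist1h4a had 81 and 116 fragments, or 23.0 and 44.4 FPKM. Hist1h4i had 71 and 69 and Hist1h4j 52 and 53, with intervals of the ratio that included 1. Hist1h4n had 7 and 16 fragments, or 2.93 and 9.03 FPKM, and Hist1h4k 10 and 6, or 8.43 and 6.81 FPKM. The most abundant H4 members, Hist1h4c, Hist1h4d, Hist1h4h and Hist1h4f, had more than 1 solution and are not part of this.

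**Figure D2:**
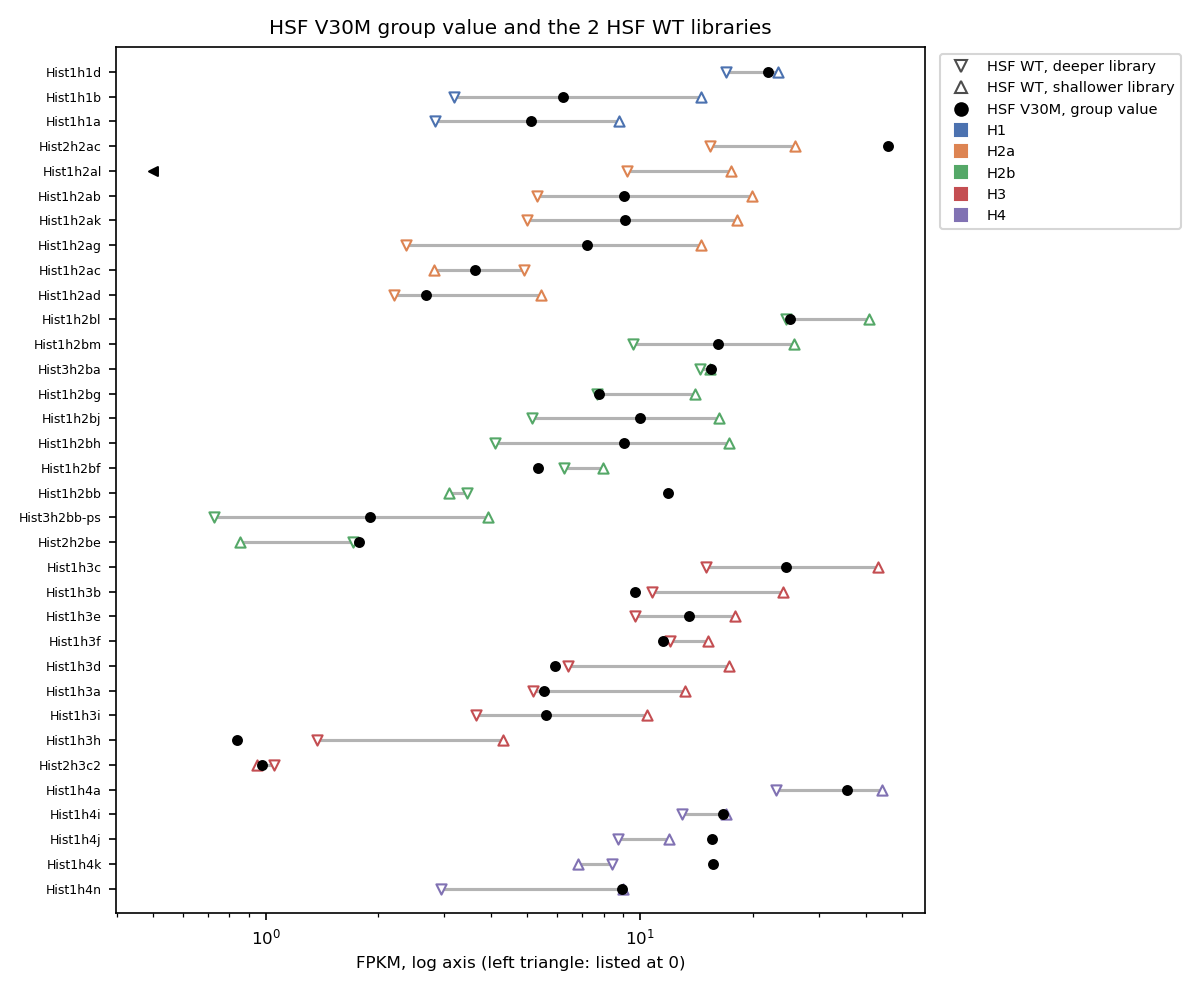
FPKM (log axis) of the 34 members with at least 10 fragments that could be read apart, with open triangles pointing down for the deeper and up for the shallower HSF WT library and a black point for the HSF V30M group value. The black point lay between the triangles for 22 members, to the right of both for 6 and to the left of both for 6.

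The HSF V30M value lay between the 2 HSF WT libraries for 22 of the 34 members, below both for 6 and above both for 6. Among the 446 other genes, 34.5% lay below both and 33.0% above both. Of the members past a fold of 2, Hist1h2bb at 11.9 FPKM lay above its libraries at 3.44 and 3.09, with 9 and 6 fragments. Hist2h2ac at 46.0 lay above 15.3 and 25.9, with 51 and 64 fragments. Hist1h2al at 0 lay below 9.20 and 17.5, with 17 and 24 fragments, and Hist1h3h at 0.84 below 1.37 and 4.31, with 3 and 7. A value at least 2-fold above the mean of 2 libraries must lie above both, so for Hist1h2bb and Hist2h2ac this place follows from their choice, and for Hist1h3h it rests on 4 to 5 fragments against 3. Hist2h4 could not be read apart. The other members above both were Hist1h4j, Hist1h4k, Hist2h2be and Hist3h2ba, and the others below both were Hist1h2bf, Hist1h3b, Hist1h3d and Hist1h3f.

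Among the members read apart, the class medians changed with the HSF WT library that was set against HSF V30M. Of the members read apart, 36 had a mean FPKM of at least 1. In HSF V30M, 24 of them were lower than the HSF WT group value, 7 were lower than the deeper library alone and 28 were lower than the shallower alone. Over all genes with a mean of at least 1, 49.6% were below the HSF WT group value. No such share was taken against 1 library alone. For the 9 H3 members the median log2 ratio was -0.59 against the group value, 0.08 against the deeper library and -1.12 against the shallower. All 9 were lower than the shallower library and 4 of 9 lower than the deeper. For the 5 H4 members it was 0.51, 0.77 and -0.02, with 3 of 5 lower than the shallower library. H1 went from -0.16 to 0.67 and -0.68, H2a from -0.20 to 0.68 and -0.80, and H2b from -0.16 to 0.40 and -0.65. The 3 comparisons share the HSF V30M values, and the group value is the mean of the 2 libraries. Since most of these members were higher in the shallower library, a lower median against it was fixed beforehand. It is no separate result. The 5 H4 members do not include Hist1h4f and Hist4h4, which were lower in HSF V30M. Nor do they include Hist1h4b, Hist1h4c, Hist1h4d, Hist1h4h and Hist2h4, which were higher, so most of the H4 level was not compared by library.

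**Figure D3:**
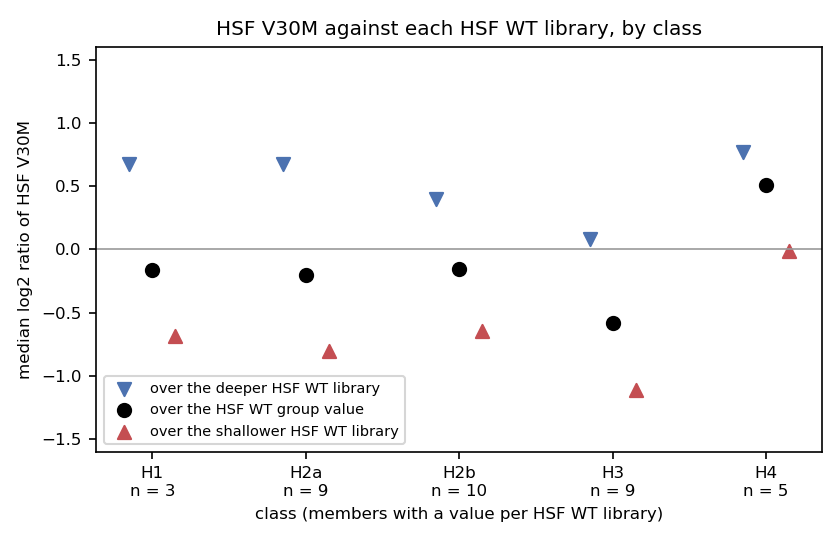
Median log2((HSF V30M + 1) / (HSF WT + 1)) of the members read apart, by class, against the HSF WT group value (black points), the deeper HSF WT library (blue triangles pointing down) and the shallower one (red triangles pointing up). The H1, H2a, H2b and H3 medians were above 0 against the deeper library and below 0 against the shallower.

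Blood cell markers moved with both splits. Of the 10 B cell markers, which include the antigen receptor subunits Cd79a and Cd79b, 6 had a mean of at least 1 and all 6 were lower in HSF V30M by a fold of 2 or more. Their sum was 24.4 FPKM in HSF V30M and 412 in HSF WT, of which Ighm, the IgM heavy chain, made 19.9 and 378. Cd79a, the only B cell marker that could be read apart, had 32 fragments in the deeper and 114 in the shallower HSF WT library, as the histone members were higher there. Most neutrophil and erythroid markers went the other way. The 10 neutrophil markers summed to 110 and 32.9 FPKM, with 6 of 7 higher in HSF V30M, 4 of them by a fold of 2 or more on the log2(FPKM + 1) scale. Csf3r was the 1 lower, at 2.63 and 6.05 FPKM. The 4 that could be read apart gave 91 fragments in the deeper and 5 in the shallower library, 63 and 0 of them from Ngp. The 9 erythroid markers found summed to 292 and 101 FPKM, with 5 of 6 higher by a fold of 2 or more, and Hbb-bt, a beta globin, had 20 and 1 fragments. None of these markers was at 0 in both groups. The 10 Schwann cell markers, all with a mean over 1, had a median log2 ratio of 0.23, with none past a fold of 2. Of all genes with a mean of at least 1, 3.98% were higher and 3.94% lower by a fold of 2. The part of blood cells in the histone levels was not tested.

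The genes of DNA replication and cell division are those whose use accompanies histone synthesis. Of 29 listed, 23 had a mean of at least 1, of which 15 were below 0 and 8 above 0, with a median log2 ratio of -0.20 beside -0.16 for the histone members. Of all genes with a mean of at least 1, 49.6% were below 0, a share that also stands beside the lists below. Pcna, the sliding clamp of DNA polymerase, was at 25.3 FPKM in HSF V30M and 33.9 in HSF WT, Mcm7 of the replicative helicase at 16.2 and 15.9, and Rrm1 of ribonucleotide reductase at 9.59 and 17.5. On the log2(FPKM + 1) scale Tyms, thymidylate synthase, was the only one past a fold of 2, at 2.79 and 7.38. In the other direction, Mcm6, also of the helicase, was at 3.66 and 1.52, a log2 ratio of 0.88. The mitotic genes were low and did not share a direction. Mki67 was at 1.31 and 1.88, Top2a at 1.25 and 1.998, Aurkb at 1.33 and 1.63 and Plk1 at 0.64 and 0.971. Higher in HSF V30M were Ccnb1 at 0.89 and 0.233, Foxm1 at 1.97 and 1.45 and Aurka at 1.17 and 0.844, among others. Ccnb2, the only one of the list that could be read apart, had 3 and 6 fragments in the deeper and shallower HSF WT library.

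The genes listed for histone mRNA processing, not all of which make the 3' end, were present in both groups. Of 18 found, 17 had a mean of at least 1, with 6 above 0, 11 below 0, none past a fold of 2 and a median of -0.08. Slbp was at 7.53 FPKM in HSF V30M and 7.35 in HSF WT. Lsm10, a subunit that only the U7 particle uses, was at 17.1 and 28.6, Sympk, the scaffold of the cleavage factor, at 36.9 and 28.6, and Srrt, which links capped RNA to processing, at 57.3 and 60.9. Among 17 histone chaperones, 6 of 16 were above 0 and 10 below 0, with a median of -0.09. Atrx was at 39.0 and 53.1 and Rbbp7 at 40.5 and 42.4. Hjurp, which loads the centromeric histone Cenpa, was the only one past a fold of 2, at 49.4 and 18.8, while Cenpa itself was at 2.72 and 2.40.

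The replication-independent histone variants, whose mRNAs are mostly polyadenylated and mostly not tied to the S phase, were also read. Their 16 genes summed to 537 FPKM in HSF V30M and 504 in HSF WT. Of 11 with a mean of at least 1, 7 were above 0, with a median log2 ratio of 0.13 and none past a fold of 2. H3f3b was at 171 and 174, H3f3a at 129 and 100, and H2afz at 113 and 112. How far the libraries captured mRNAs with and without a poly(A) tail alike is not known, so these levels are not set against those of the members.

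Many members share sequence with near-identical copies. For each member, windows of 100 bases were searched in the GENCODE M21 transcripts of all other genes, and the share found in no other gene was taken. It was under 20% for 17 of the 70 members. Of the 10 members listed at 0 in both groups, 9 were among these, with unique shares from 0.00% to 14.2%, as against 8 of the 60 members above 0 in at least 1 group, whose median share was 58.9%. Hist2h2bb, with no unique window, was among the 8. The 10th was Hist1h2aa, known from the testis, with 89.7% unique. How reads that match several genes were counted is not given in the sources used here, so a listed 0 for Hist1h2ah, Hist1h2ai, Hist1h2aj, Hist1h2ao, Hist1h2ap, Hist1h2bq, Hist1h2br, Hist2h2aa1 or Hist2h2aa2 does not show that it was silent. The values of Hist1h2ad (18.1% unique), Hist1h3h (8.01%) and Hist1h4n (19.3%) are uncertain too, as are those of Hist1h2ag (23.8%), just over the limit of 20%. Hist1h2bb at 62.0%, Hist2h2ac at 83.1%, Hist2h4 with all windows unique and Hist1h2al at 80.8% had more sequence of their own.

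**Figure D4:**
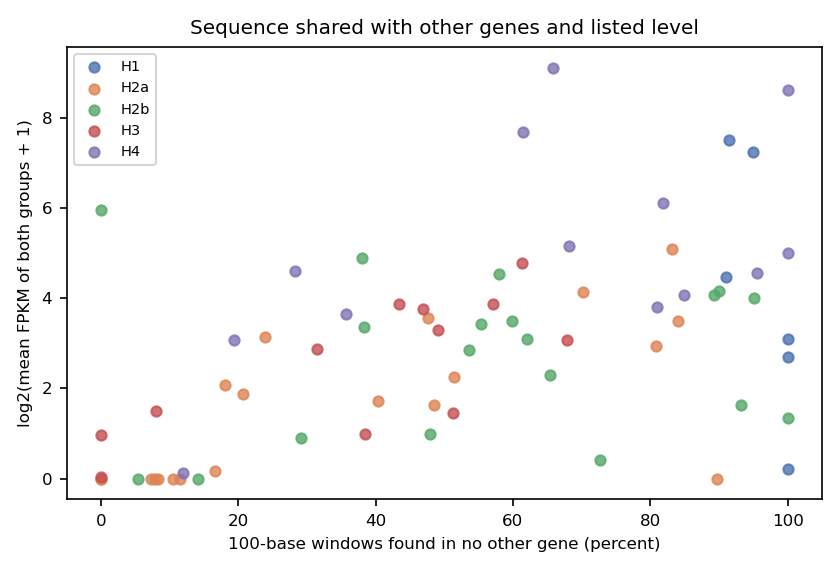
Share of 100-base windows found in no other gene (percent) against log2(mean FPKM of both groups + 1) for the 70 members, coloured by class. The members at 0 on the vertical axis lay between 0 and 14.2% except for Hist1h2aa at 89.7%, and the H4 members reached the highest levels.

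The promoters differed by class. RefSeq promoter windows (GRCm38.p6, 250 bases before to 50 after the start) were found for 61 members, and motifs were searched on both strands. CCAAT, bound by NF-Y, was present in all 49 windows of H1, H2a, H2b and H3 and in 3 of 12 of H4, against 37.9% of 27025 promoters. TATAAA was present in 57.4% of the members' windows and in 14.2% of all. The octamer ATTTGCAT, bound by Oct1, was found in 7 of 17 H2a and 6 of 16 H2b windows, in none of H1, H3 and H4, and in 1.75% of all. AAACACA, the AC box known from H1 genes, was found in 5 of 6 H1 windows and 7.14% of all. A match is a description of letters and not a binding site, and these shares do not bear on the difference between the groups.

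Not every window of a class held its motifs. TATAAA was present in 4 of 6 H1, 11 of 17 H2a, 8 of 16 H2b, 4 of 10 H3 and 8 of 12 H4 windows. The windows of 150 bases before the start shown here were picked for the motifs they hold, in capitals on either strand. They are of members whose levels are given above and do not stand for every window of their class. They are from chr13:21780626-21780775 for Hist1h1b (minus strand), chr13:23750938-23751087 for Hist1h2ab (plus), chr13:23746584-23746733 for Hist1h2bb (plus), chr13:23752195-23752344 for Hist1h3b (plus) and chr13:21750554-21750703 for Hist1h4k (minus):
Hist1h1b: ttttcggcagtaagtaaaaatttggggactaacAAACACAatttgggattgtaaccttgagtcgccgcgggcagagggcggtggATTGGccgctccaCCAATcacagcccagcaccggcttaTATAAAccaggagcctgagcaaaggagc
Hist1h2ab: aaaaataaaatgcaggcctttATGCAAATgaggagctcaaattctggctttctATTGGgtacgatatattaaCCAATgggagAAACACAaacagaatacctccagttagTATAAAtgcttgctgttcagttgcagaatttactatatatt
Hist1h2bb: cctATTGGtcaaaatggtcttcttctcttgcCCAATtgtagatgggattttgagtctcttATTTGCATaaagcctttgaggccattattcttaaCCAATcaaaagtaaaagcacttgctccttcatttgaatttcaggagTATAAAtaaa
Hist1h3b: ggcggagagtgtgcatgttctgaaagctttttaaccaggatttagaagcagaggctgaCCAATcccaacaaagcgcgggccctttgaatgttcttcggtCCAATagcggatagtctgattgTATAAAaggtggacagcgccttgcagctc
Hist1h4k: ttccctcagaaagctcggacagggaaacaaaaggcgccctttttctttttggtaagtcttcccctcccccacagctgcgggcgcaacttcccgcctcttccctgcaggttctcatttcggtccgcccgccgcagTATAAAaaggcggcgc
The H1 window holds the AC box, CCAAT and TATAAA, and the H2a and H2b windows hold the octamer beside CCAAT and TATAAA. The H4 window holds TATAAA alone, and the H2a window holds AAACACA as well.

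**Figure D5:**
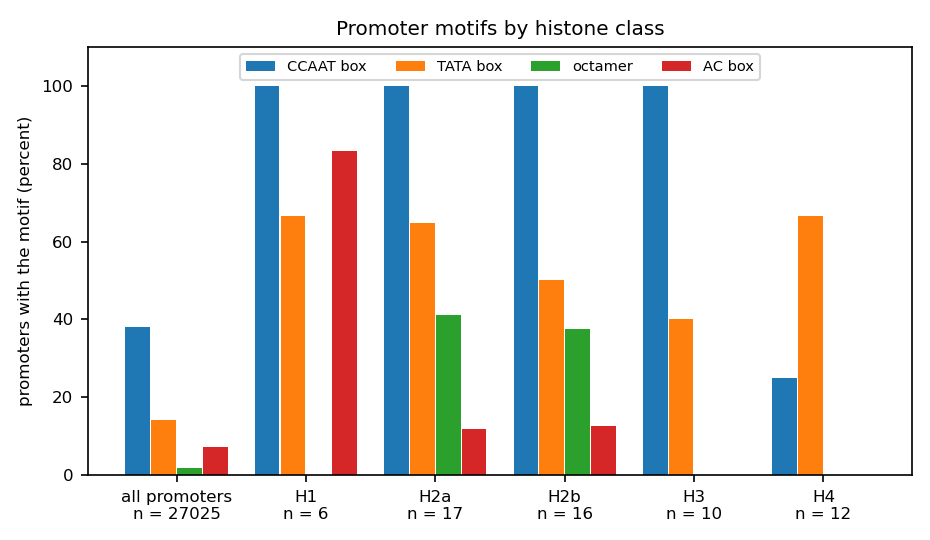
Share of promoter windows (percent) that hold the CCAAT, TATA, octamer or AC box motif, for all 27025 RefSeq promoters and for each class. CCAAT was present in every window of H1, H2a, H2b and H3, and the octamer was found in H2a and H2b alone among the classes.

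Many H2a and H2b genes stand head to head and share a promoter. Windows of 9 pairs overlapped on opposite strands by 220 to 279 of their 300 bases, and all 9 paired an H2a with an H2b gene, so that their motifs are not independent. Both members of Hist1h2ag and Hist1h2bj were expressed, at 7.22 and 9.98 FPKM in HSF V30M and 8.46 and 10.7 in HSF WT. Both were also higher in the shallower HSF WT library, with ratios of 6.16 and 3.17, though only 23.8% of the windows of Hist1h2ag were unique. Levels within a pair could be far apart, as in Hist1h2ak at 9.10 and 11.6 and Hist1h2bn at 1.33 and 0.624. For Hist1h2ai, listed at 0, and Hist1h2bl, at 25.2 and 32.7, the gap cannot be read, since 11.6% of the windows of Hist1h2ai were unique.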

How the data were processed

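Sciatic nerve RNA of 2 mice per group (HSF V30M, HSF WT) was sequenced by Ion Torrent protocols. The submitters' processing notes name GRCm38, STAR, Cufflinks and Cuffdiff. Their versions, the annotation and the cDNA primer are not given in the sources used here, and the primer bears on mRNAs without a poly(A) tail. The authors deposited 1 table without values per mouse. It gives the FPKM of each group as Cuffdiff estimated it, written with decimal commas. Its columns of fold change, test statistic, p-value and q-value hold the authors' comparison and were not used. The 23 genes with too many alignments were left out.

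Read totals are not in the table, and depth was read from the worth of 1 fragment. This step, the transcript length taken from the table's own gene model and the split of HSF WT into 2 libraries were added after seeing the data. Effective length followed a fragment distribution of mean 200, SD 80 and a maximum of 440 bases. A solution was kept if unique, and if spacing alone would give at most 0.5 solutions. HSF V30M fragments are a range, from a worth of 0.0389 or 0.0460. Ranges and intervals cover counting error only, and 3 fragments were taken as the floor.

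Log2 ratios used a pseudocount of 1 and a minimum mean of 1. Alternatives were a pseudocount of 0.1, no minimum or 5, a fold of 1.5, median-of-ratios scaling (factors 0.999 for HSF V30M and 1.00 for HSF WT) and members without near-identical copies. No count model was used. Positions and transcripts are from GENCODE M21 and the table, and promoters from RefSeq. Of the 70 members, 2 were matched to M21 by symbol.

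The members, gene lists and naming rule were chosen with earlier results of these data known. The rule names the 5 members of each class with the highest mean, those past a fold of 2 with a mean of at least 1, those at 0 in 1 group with at least 10 fragments in the other, and in each list of the pathway the 3 highest genes and those past the fold. Members named beside it were chosen after their values were seen. Ars2, Tut7 and Ahsp of the lists were not found under these symbols. Ars2 and Tut7 are other names of Srrt and Zcchc6, which the same list holds and which were found. The steps ran in Python 3.11.15 with scipy 1.17.1, pandas 2.3.3, numpy 2.4.6 and matplotlib 3.10.9 and were tested on simulated data.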

Additional observations from a re-analysis of the deposited data

How the results depend on the processing

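No paired analysis was possible because values per mouse are not in the table. The 3 members higher by a fold of 2 were 3 to 4 under the alternatives. For the 2 members lower by a fold of 2, the count became 1 with a minimum mean of 5, 1 without members with a near-identical copy and 7 with a fold of 1.5. No share of all genes was taken at these settings. Without the highest member of a class or cluster, the ratio of the sums moved by more than 10%, to 1.14 in H1, 0.720 in H2a, 0.909 in H2b and 2.08 in Hist2.

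Leaving out 1 HSF WT library, which was added after seeing the data, changed most counts over the members read apart. Without the shallower and without the deeper library, 6 and 2 members were higher by a fold of 2, 1 and 8 were lower by it, 29 and 8 were above the HSF WT value and 7 and 28 below. The class medians moved with it, from 0.67 to -0.68 in H1, 0.68 to -0.80 in H2a, 0.40 to -0.65 in H2b, 0.082 to -1.12 in H3 and 0.77 to -0.016 in H4. Since the members were mostly higher in the shallower library, a move in this direction follows from that and is no separate result. The HSF V30M libraries could not be left out in turn, and no share of other genes was taken beside these counts of members.

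Fragments limit what the low members show. A listed 0 holds no counted fragment, and a level of up to 3 fragments is compatible with it. The 8 members with more than 1 solution, among them the 5 most abundant, have no value per library. Under the 5 other settings of pseudocount, minimum, scaling and copies, the class medians kept their sign, at -0.19 to -0.02 in H1, -0.26 to -0.08 in H2a, -0.36 to -0.12 in H2b, -0.72 to -0.28 in H3 and 0.45 to 0.47 in H4. The 8 list medians kept theirs under the 4 of these settings run on them, those of pseudocount, minimum and scaling.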
